A study of Homo sapiens with 8 samples.

Results

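The genes described here encode proteins that start, elongate and end protein synthesis on cytosolic ribosomes, or relatives and modifiers of these proteins. They were taken by name: every gene whose symbol begins with EIF1 to EIF6 or with EEF1 or EEF2, without the kinases that share these stems, together with the poly(A)-binding protein genes PABPC1 and PABPC4 and the release factor genes ETF1 and GSPT1. A mean of at least 10 estimated counts over the 8 libraries was also required. Of 19892 genes in the table, 69 matched by name and 64 met the minimum. The lowest of the 64 were EIF5AL1, EIF3CL and EIF4E3, with mean counts of 11.04, 30.8 and 48.25, and the highest of the 5 left out was EIF4EBP3, with 1.10. The rule itself uses no measured change. It also takes in genes that are not such factors themselves, among them EEF1AKMT1, EEF2KMT, EEF1E1, EIF4EBP1 and EIF4A3. All 64 are called factors below for short.

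The cells were MDA-MB-231, an established triple-negative line from a breast tumour, given an siRNA against ADAR1 or a control siRNA. ADAR1, encoded by ADAR, edits adenosine to inosine in double-stranded RNA. Each treatment was measured as Ribo-seq, the sequencing of RNA of the size that a ribosome covers, and as Input, longer RNA fragments of the same kind of lysate, with 2 libraries per group and 8 in all. The labels give neither the siRNA sequences nor the time after transfection, and a single cell line was used. Whether the 2 replicates came from separate cultures is not stated, so the p-values cover only how these libraries vary, which may be technical variation.

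Initiation begins when eIF2, carrying GTP and the initiator tRNA, joins the small ribosomal subunit with eIF1, eIF1A, eIF3 and eIF5. The complex eIF4F recruits this assembly to the capped end of a messenger RNA, and eIF2B reloads eIF2 with GTP after each round. During elongation eEF1A brings aminoacyl-tRNAs and eEF2 moves the ribosome along, and at a stop codon eRF1 and eRF3 release the finished chain. Many transcripts of elongation factors and ribosomal proteins begin with a C followed by a run of pyrimidines, the terminal oligopyrimidine (TOP) tract, through which mTOR signalling and LARP1 are known to control their translation.

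Libraries held 10492223 to 14875465 estimated counts in Ribo-seq and 15732757 to 17153716 in Input. ADAR stood at 1.55 and 8.41 TPM (a level per transcript length, scaled to the same sum in each library) in ADAR1 siRNA Ribo-seq, against 19.1 and 20.3 TPM with control siRNA. In Input it stood at 14.8 and 30.6 TPM with ADAR1 siRNA, against 106 and 110.2 TPM with control siRNA. All 6 genes expected in MDA-MB-231, among them VIM and CD44, had median Input levels of 161 to 4465 TPM. ESR1, PGR and CDH1 lay below 0.1 TPM, whereas ERBB2, EPCAM and GATA3, also listed as low in this line, had medians of 31.8, 13.8 and 7.41 TPM. The 8 markers of other cells had medians of at most 3.03 TPM. The ADAR1 siRNA Ribo-seq libraries did not lie equally far from the controls. Relative to the control mean, the median log2 ratio of the translation factors was -0.45 in replicate 1 and -0.15 in replicate 2, beside -0.12 and -0.00015 for all genes tested. For 52 of 62 factors the Ribo-seq TPM was lower in ADAR1 siRNA replicate 1 than in replicate 2, as it was for 67.4% of all 12000 genes tested. Replicate 1 also had the lower ADAR level in both assays. The part of the knockdown's depth in the results below was not tested.

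The starts of these genes are shown because the TOP tract is the feature through which several of the factors are known to be controlled together. Each line gives 30 bases of a RefSeq promoter (GRCh38.p14), from 10 bases before the annotated start to 20 bases from it, read 5′ to 3′ on the gene's strand. Capitals mark a C followed by at least 4 pyrimidines, where such a tract begins at the start or within 5 bases of it. First stand the 5 genes whose footprints fell, then 5 others that were picked because they carry such a tract at the start. EIF3F, EIF3K, EIF3M and EIF4A2 carry one as well and are not shown, but are counted with the others below.
EEF1A1: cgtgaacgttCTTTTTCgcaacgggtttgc
EIF3D: cgcatgtttcCTCTTTTCCTggtttctcaa
EIF3C: tcccaCCCCCgtggcaggcagccctgcacc
EIF2B4: tgaccacggcgggcggagcctaggactgag
EIF4A3: cggcagcggcacagcgaggtcggcagcggc
EEF2: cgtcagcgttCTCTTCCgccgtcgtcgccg
EIF2A: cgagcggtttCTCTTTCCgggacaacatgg
EIF2S3: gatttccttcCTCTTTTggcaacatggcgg
EIF4B: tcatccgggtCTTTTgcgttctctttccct
EIF2D: ccagccgggcCCTTTTCgcggccgggcccc
The windows of EEF1A1 (chr6:73521013-73521042, minus strand), EIF3D (chr22:36529147-36529176, minus), EEF2 (chr19:3985444-3985473, minus), EIF2A (chr3:150546777-150546806, plus), EIF2S3 (chrX:24054946-24054975, plus), EIF4B (chr12:53006446-53006475, plus) and EIF2D (chr1:206612446-206612475, minus) carry a tract that begins at the start itself. In EIF3C (chr16:28688548-28688577, plus) a run of C begins 5 bases before the start and ends ahead of it. The annotated transcript of EIF3C thus does not begin with this run. The windows of EIF2B4 (chr2:27370319-27370348, minus) and EIF4A3 (chr17:80147109-80147138, minus) hold none. Promoters were matched for 49 of the 64 factors. A tract at the start was found in 11 of the 49 (22.4%), in 42 of 62 ribosomal protein genes (67.7%) and in 4.66% of 15550 promoters of genes in the table.

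As a share of all TPM, the 64 factors took 1.72% and 2.07% in ADAR1 siRNA Ribo-seq, against 2.35% and 2.44% with control siRNA. In Input they took 2.70% and 2.68% with ADAR1 siRNA, against 2.54% and 2.55% with control siRNA. The 2 groups do not overlap in either assay, and the ADAR1 siRNA libraries are the lower ones in Ribo-seq and the higher ones in Input. In such bulk libraries, fewer cells with a transcript and less of it per cell cannot be told apart. EEF1A1 alone took 0.226% and 0.347% of Ribo-seq TPM with ADAR1 siRNA, against 0.458% and 0.521% with control siRNA. Without it the other 63 factors took 1.49% and 1.72% with ADAR1 siRNA, against 1.89% and 1.92% with control siRNA. Ribosomal proteins took 19.6% and 19.5% of Ribo-seq TPM with ADAR1 siRNA, against 19.5% and 18.6% with control siRNA.

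**Figure D1:**
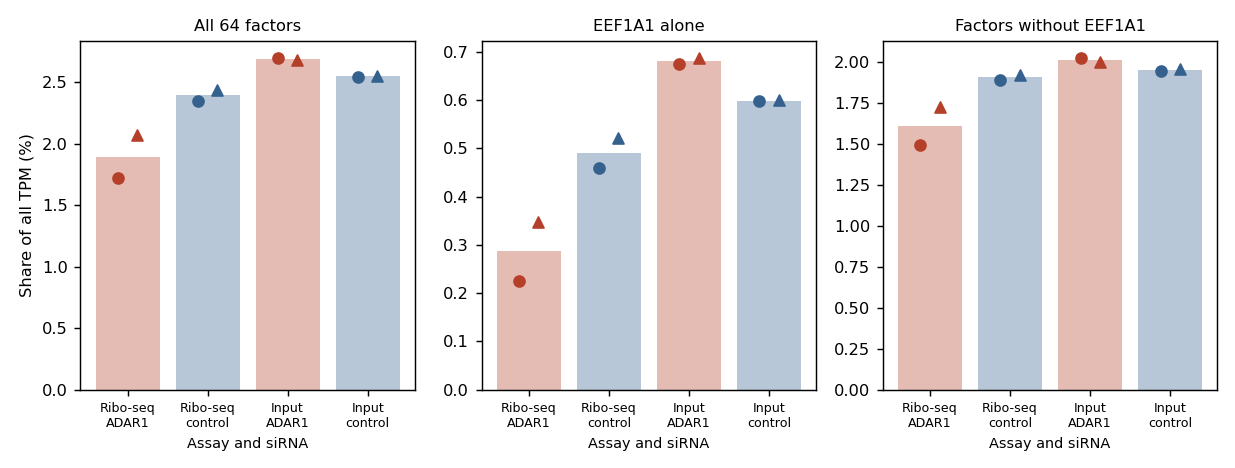
Share of all TPM, in percent, taken by the 64 factors together, by EEF1A1 alone and by the factors without EEF1A1; bars are means and points single libraries (circle replicate 1, triangle replicate 2). In Ribo-seq both ADAR1 siRNA libraries lie below both controls in every panel (1.72% and 2.07% against 2.35% and 2.44% for all factors), and in Input they lie above them.

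Gene by gene, footprints of 5 translation factors fell with ADAR1 siRNA: EIF2B4, EIF3C, EIF3D, EIF4A3 and EEF1A1. None rose by edgeR, DESeq2 or limma-voom. At an unadjusted p under 0.05 by edgeR, 20 lay below 0 and 1 (EIF4E3) above, against 11.3% and 12.6% of all genes. Of the 64 factors 62 passed the filter on low counts in Ribo-seq, so the 5 make up 8.06% of those tested, where 1.67% of all 12000 genes tested were lower, 1.88% were higher and 3.54% changed in all (edgeR's quasi-likelihood test, Benjamini-Hochberg adjusted p under 0.05). The median log2 fold change of the 62 was -0.19, with 42 below 0, beside a median of 0.05 over all genes tested, of which 45.6% lay below 0 and 54.4% above. By TPM, both ADAR1 siRNA libraries lay below both controls for 38 of the 62 (61.3%) and above both for 5. Of all genes tested, 31.2% and 23.0% did so. TPM is scaled otherwise than the counts behind the fold changes. Some of the 38 had a fitted change near 0, such as EEF1AKMT1 (log2 -0.02). Single libraries decided how many factors passed. Without control Ribo-seq replicate 2 none did by edgeR (7 at an unadjusted p under 0.05), and without control replicate 1 only EIF2B4, EIF3C and EIF3D did, where 0.621% and 3.07% of all genes changed. Without ADAR1 siRNA Ribo-seq replicate 1, 15 fell and EIF5B rose (15.3% of all genes changed), and without replicate 2, 29 fell (28.1% of all genes).

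In RNA, none of the 64 factors changed by edgeR, where 32 of 12644 genes tested (0.253%) did, 0.0791% higher and 0.174% lower. At an unadjusted p under 0.05 there were 19 factors, 15 above 0 and 4 below. Of all genes 25.3% had such a p, 11.8% above 0 and 13.5% below. DESeq2 called EIF5 and 3.55% of all genes, and limma-voom called none of the factors. The median log2 fold change was 0.07, with 42 above 0 and 22 below, beside a median of 0.0037 over all genes tested, of which 50.6% lay above 0 and 49.4% below. By TPM, groups did not overlap for 33 factors with ADAR1 siRNA higher and for 10 with it lower (29.2% and 27.9% of all genes tested). The smallest adjusted p-values by edgeR belonged to EIF5 (log2 0.33 ± 0.06, SE, adjusted p = 0.0706) and to EIF4EBP1 (-0.36 ± 0.08, adjusted p = 0.0832). Without ADAR1 siRNA Input replicate 1, 22 factors rose and 6 fell, and without replicate 2, 24 rose and 14 fell, while 31.9% and 42.1% of all genes changed. Without either control Input library none of the factors and none of all genes passed by edgeR, with 2 factors at an unadjusted p under 0.05 in each case.

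The signs of RNA and footprint fold changes were then set side by side. Of the 62 factors tested in both, 23 had an RNA fold change above 0 and a footprint fold change below 0, 19 lay below 0 in both, 17 lay above 0 in both, and 3 lay below 0 in RNA and above 0 in footprints. Over all 11743 genes tested in both, 21.0% lay above 0 in RNA and below 0 in footprints. The other pairs of signs were not counted over all genes. Across the 62 factors the 2 fold changes had a Spearman rho of 0.36, beside 0.16 over all genes, both from the same libraries and given as a description.

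**Figure D2:**
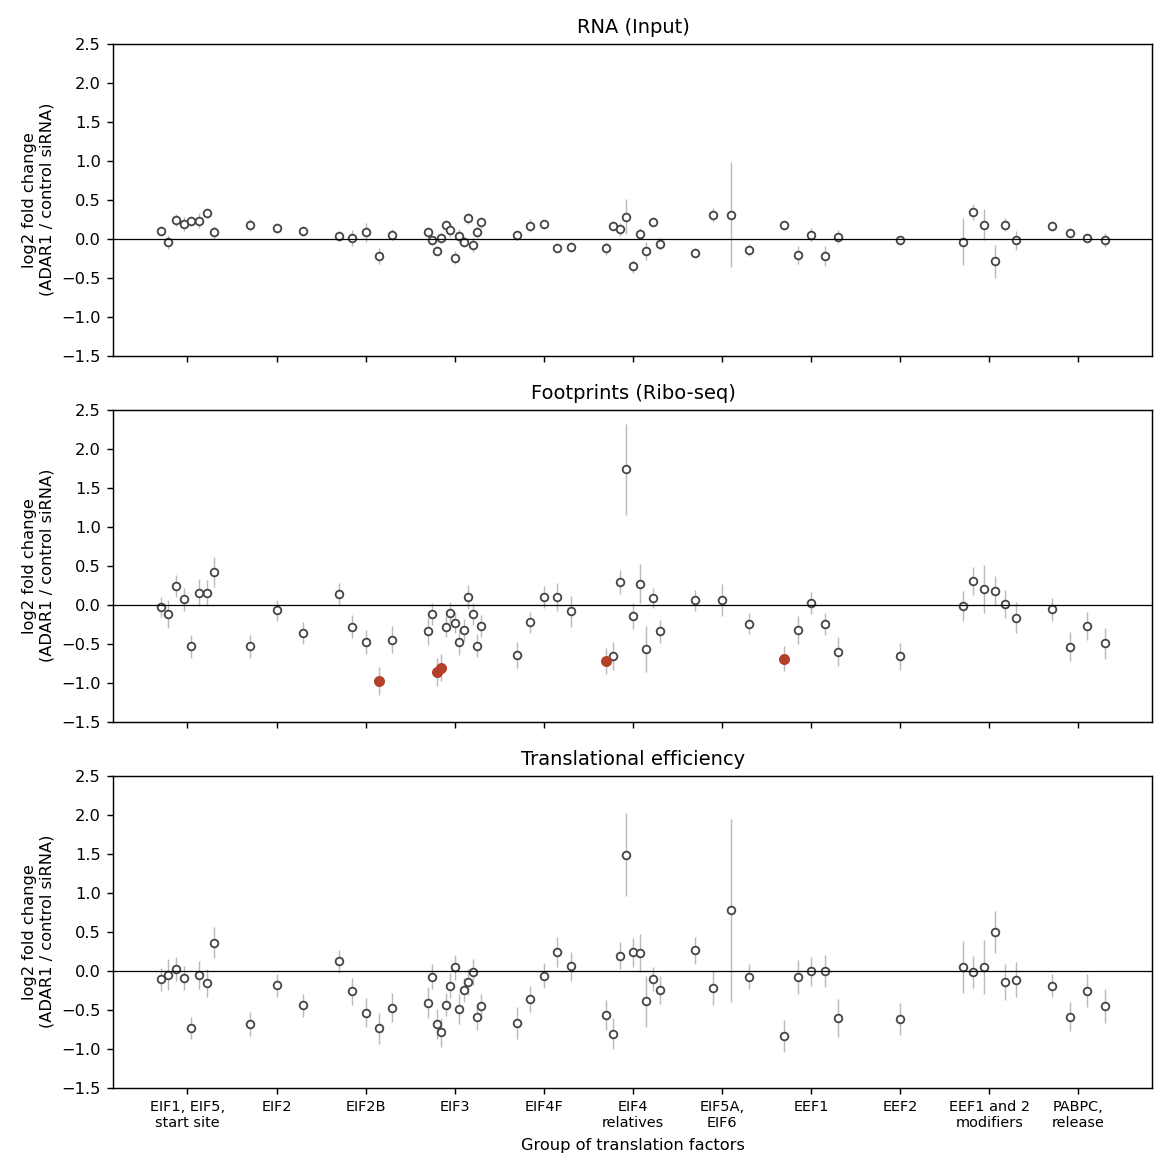
Log2 fold change (ADAR1 siRNA over control siRNA) of each factor in RNA, footprints and translational efficiency, by group; bars are standard errors and filled points passed the edgeR test. EIF3CL is not drawn. Filled points stand only in the footprint panel, where they are EIF2B4, EIF3C, EIF3D, EIF4A3 and EEF1A1, and 42 of 62 points there lie below 0.

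Among the factors that carry the initiator tRNA, the 3 subunits of eIF2 all lay lower in ADAR1 siRNA Ribo-seq. EIF2S1, the alpha subunit whose phosphorylation slows initiation during stress, had 80.1 and 102 TPM with ADAR1 siRNA, against 135 and 146 TPM with control siRNA in Ribo-seq. Its Input levels were 180.1 and 154 TPM with ADAR1 siRNA, against 142 and 150.0 TPM with control siRNA. The groups were apart in opposite directions in the 2 assays. The log2 fold change was -0.54 ± 0.15 (SE) in footprints and 0.18 ± 0.08 in RNA, with edgeR adjusted p-values of 0.0655 and 0.212. EIF2S2, the beta subunit, had 174 and 216 TPM with ADAR1 siRNA, against 219 and 218 TPM with control siRNA in Ribo-seq and 453 and 416 TPM with ADAR1 siRNA, against 384 and 382 TPM with control siRNA in Input. EIF2S3, the gamma subunit that binds GTP and tRNA, had 59.3 and 73.7 TPM with ADAR1 siRNA, against 86.9 and 95.5 TPM with control siRNA in Ribo-seq and 139.7 and 126 TPM with ADAR1 siRNA, against 122 and 123 TPM with control siRNA in Input. EIF2S2 stood highest and EIF2S3 lowest in all 8 libraries. None of the 3 passed, with a median log2 fold change of -0.37 in footprints, and the controls lay above both ADAR1 siRNA libraries by little for EIF2S2.

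In eIF2B, the exchange factor of eIF2, footprints of the delta subunit gene fell and those of the alpha subunit gene did not differ beyond the spread. EIF2B4 (NCBI gene 8890; GRCh38.p14 chromosome 2, 27364352 to 27370338), the delta subunit, had 9.99 and 13.1 TPM with ADAR1 siRNA, against 21.0 and 27.4 TPM with control siRNA in Ribo-seq. Both ADAR1 siRNA libraries lay well below both controls, at 41.2% and 54.0% of the control mean. Its log2 fold change of -0.98 ± 0.18 (SE, n = 2 each) passed by edgeR (adjusted p = 0.0353). In Input it had 49.0 and 44.7 TPM with ADAR1 siRNA, against 50.1 and 57.5 TPM with control siRNA, and the log2 fold change of -0.22 ± 0.10 did not pass (edgeR adjusted p = 0.237). EIF2B1, the alpha subunit, had 69.1 and 72.9 TPM with ADAR1 siRNA, against 68.5 and 69.6 TPM with control siRNA in Ribo-seq, and these groups overlap. EIF2B2, the beta subunit, had 56.4 and 71.1 TPM with ADAR1 siRNA, against 78.6 and 86.1 TPM with control siRNA. EIF2B3, the gamma subunit, had 22.0 and 21.8 TPM with ADAR1 siRNA, against 31.6 and 34.3 TPM with control siRNA, apart in both libraries (edgeR adjusted p = 0.0982). EIF2B5, the epsilon subunit with the catalytic site, had 11.9 and 18.8 TPM with ADAR1 siRNA, against 19.8 and 24.6 TPM with control siRNA. Input levels were 87.9 and 87.6 TPM with ADAR1 siRNA, against 84.9 and 84.4 TPM with control siRNA for EIF2B1. They were 47.7 and 50.3 TPM with ADAR1 siRNA, against 44.2 and 52.3 TPM with control siRNA for EIF2B2. EIF2B3 and EIF2B5 held 60.9 to 83.5 TPM in all 4 Input libraries. The TPM of the highest eIF2B subunit was 6.92 and 5.58 times that of the lowest in ADAR1 siRNA Ribo-seq, against 3.96 and 3.50 times with control siRNA. In Input it was 1.84 and 1.96 times with ADAR1 siRNA, against 1.92 and 1.61 times with control siRNA. The lowest Ribo-seq level was EIF2B4 with ADAR1 siRNA and EIF2B5 with control siRNA.

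The largest complex, eIF3, bridges the small subunit and eIF4G. Footprints of EIF3C and EIF3D fell, and 12 of the 13 subunits tested had a log2 fold change below 0 (median -0.28). EIF3C (NCBI gene 8663; chromosome 16, 28688558 to 28735730), a core subunit, had 25.2 and 32.5 TPM with ADAR1 siRNA, against 46.8 and 65.2 TPM with control siRNA in Ribo-seq and 421 and 386 TPM with ADAR1 siRNA, against 443 and 431 TPM with control siRNA in Input. Its footprints changed by -0.87 ± 0.18 (log2, SE; edgeR adjusted p = 0.0422) and its RNA by -0.15 ± 0.06 (adjusted p = 0.185, not passed). EIF3D (NCBI gene 8664; chromosome 22, 36510855 to 36529166), a subunit known to bind the cap of some transcripts, had 35.5 and 50.4 TPM with ADAR1 siRNA, against 71.2 and 88.2 TPM with control siRNA in Ribo-seq and 368 and 345 TPM with ADAR1 siRNA, against 349.9 and 351 TPM with control siRNA in Input. Its log2 fold change was -0.81 ± 0.17 in footprints (edgeR adjusted p = 0.0429) and 0.01 ± 0.06 in RNA. The ADAR1 siRNA libraries lay below both controls in Ribo-seq for both genes, whereas the Input levels of EIF3D overlap.

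Other core subunits of eIF3 did not pass. EIF3A, its largest scaffold, had 32.1 and 48.8 TPM with ADAR1 siRNA, against 49.97 and 58.6 TPM with control siRNA in Ribo-seq and 367 and 326 TPM with ADAR1 siRNA, against 324 and 319 TPM with control siRNA in Input. EIF3B, a scaffold with a beta-propeller, had 124 and 163 TPM with ADAR1 siRNA, against 168 and 165 TPM with control siRNA in Ribo-seq and 398 and 386 TPM with ADAR1 siRNA, against 385 and 392 TPM with control siRNA in Input. EIF3B is thus close to its control level in replicate 2 and lower in replicate 1. EIF3E had 207 and 254 TPM with ADAR1 siRNA, against 295 and 303 TPM with control siRNA in Ribo-seq and 728 and 677 TPM with ADAR1 siRNA, against 607 and 614 TPM with control siRNA in Input, the highest Input level of the complex. EIF3F had 176 and 211 TPM with ADAR1 siRNA, against 219 and 223 TPM with control siRNA in Ribo-seq and 61.1 and 67.5 TPM with ADAR1 siRNA, against 58.7 and 59.1 TPM with control siRNA in Input, the lowest Input level of the 13. EIF3H had 97.6 and 138 TPM with ADAR1 siRNA, against 159 and 188 TPM with control siRNA in Ribo-seq and 186 and 206 TPM with ADAR1 siRNA, against 193 and 186 TPM with control siRNA in Input. These 3 belong to the module of eIF3 that carries MPN or PCI folds, and in each the Ribo-seq groups do not overlap. EIF3L, a subunit of the same module, had 61.3 and 83.2 TPM with ADAR1 siRNA, against 106 and 114 TPM with control siRNA in Ribo-seq and 233 and 251 TPM with ADAR1 siRNA, against 234 and 224 TPM with control siRNA in Input, with the next smallest p of the complex (log2 -0.52 ± 0.15, edgeR adjusted p = 0.0739). EIF3M, another, had 210.1 and 280.4 TPM with ADAR1 siRNA, against 315 and 327 TPM with control siRNA in Ribo-seq and 455 and 464 TPM with ADAR1 siRNA, against 382 and 396 TPM with control siRNA in Input. EIF3K had 267 and 292 TPM with ADAR1 siRNA, against 332 and 314 TPM with control siRNA in Ribo-seq and 298 and 329 TPM with ADAR1 siRNA, against 325 and 330.1 TPM with control siRNA in Input. All 3 lay lower in both ADAR1 siRNA Ribo-seq libraries, and EIF3M lay higher in both ADAR1 siRNA Input libraries.

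The peripheral subunits completed the range. EIF3G, an RNA-binding subunit, had 159 and 199.7 TPM with ADAR1 siRNA, against 216 and 230.8 TPM with control siRNA in Ribo-seq and 302 and 328 TPM with ADAR1 siRNA, against 367 and 373 TPM with control siRNA in Input, lower with ADAR1 siRNA in both assays. EIF3I, a WD-repeat subunit, had 258 and 256 TPM with ADAR1 siRNA, against 328 and 359 TPM with control siRNA in Ribo-seq and 302 and 283 TPM with ADAR1 siRNA, against 297 and 296 TPM with control siRNA in Input. EIF3J, a loosely bound subunit at the decoding site, had 158 and 189 TPM with ADAR1 siRNA, against 182 and 159 TPM with control siRNA in Ribo-seq and 210.0 and 187 TPM with ADAR1 siRNA, against 168 and 159 TPM with control siRNA in Input. EIF3J was the single subunit with a footprint fold change above 0 (0.10 ± 0.15, edgeR adjusted p = 0.724), and its Ribo-seq groups overlap. The TPM of the highest eIF3 subunit was 10.6 and 8.97 times that of the lowest in ADAR1 siRNA Ribo-seq, against 7.10 and 6.13 times with control siRNA. EIF3CL, a near-identical copy of EIF3C, had 189 and 42.6 estimated counts in ADAR1 siRNA Input, against 14.5 and 0 with control siRNA, and 0 in every Ribo-seq library. Its RNA log2 fold change of 3.99 ± 1.08 (edgeR adjusted p = 0.101) is uncertain, since reads of the 2 copies can be shared or split. With their counts summed, EIF3C changed by -0.13 in RNA.

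**Figure D3:**
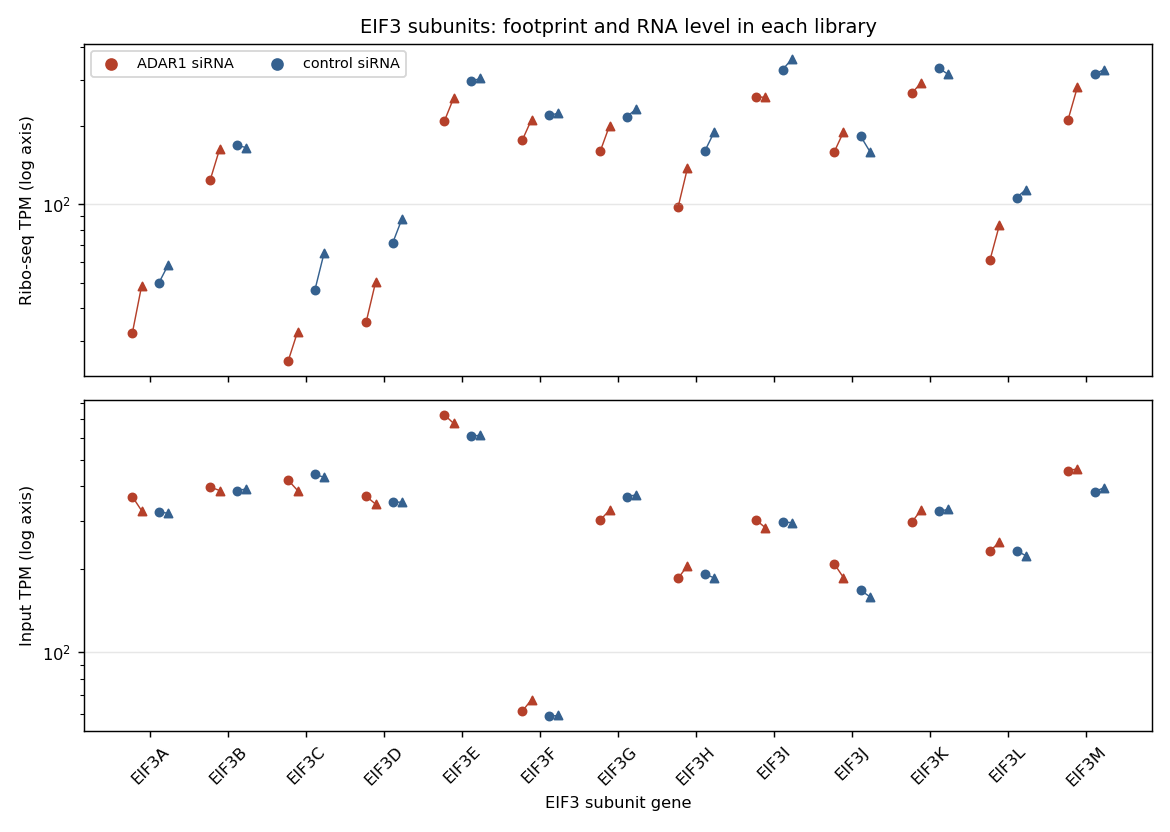
TPM (log axis) of the 13 eIF3 subunit genes in each Ribo-seq library (top) and each Input library (bottom); a line joins the 2 libraries of a group (circle replicate 1, triangle replicate 2). In Ribo-seq both ADAR1 siRNA points lie below both controls for 12 subunits, the exception being EIF3J, beside 31.2% of all genes tested. In Input both points do so for EIF3C and EIF3G, beside 27.9% of all genes tested.

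The cap-binding complex eIF4F showed unlike values for its helicase and for its other parts. EIF4A1, the main helicase, had 926 and 1462 TPM with ADAR1 siRNA, against 1868 and 2095 TPM with control siRNA in Ribo-seq and 1737 and 1707 TPM with ADAR1 siRNA, against 1653 and 1649 TPM with control siRNA in Input. The Ribo-seq libraries with ADAR1 siRNA were the lower ones, at 46.7% and 73.8% of the control mean, but the log2 fold change of -0.65 ± 0.17 did not pass (edgeR adjusted p = 0.0591). EIF4A2, its close relative, had 219.9 and 233 TPM with ADAR1 siRNA, against 269 and 297 TPM with control siRNA in Ribo-seq and 671 and 550.1 TPM with ADAR1 siRNA, against 537 and 536 TPM with control siRNA in Input. EIF4A1 therefore made up 80.8% and 86.3% of the footprint TPM of the pair with ADAR1 siRNA, against 87.4% and 87.6% with control siRNA. In Input it made up 72.1% and 75.6% with ADAR1 siRNA, against 75.5% in both controls. EIF4E, which binds the cap, had 227 and 241 TPM with ADAR1 siRNA, against 245 and 221 TPM with control siRNA in Ribo-seq, overlapping, and 33.2 and 31.6 TPM with ADAR1 siRNA, against 28.3 and 27.9 TPM with control siRNA in Input. EIF4G1, the scaffold, had 17.1 and 25.5 TPM with ADAR1 siRNA, against 18.6 and 22.4 TPM with control siRNA in Ribo-seq, overlapping, and 546 and 521 TPM with ADAR1 siRNA, against 570.4 and 563 TPM with control siRNA in Input. EIF4G3, a second scaffold, had 2.60 and 3.96 TPM with ADAR1 siRNA, against 4.27 and 4.13 TPM with control siRNA in Ribo-seq and 83.7 and 78.9 TPM with ADAR1 siRNA, against 82.8 and 87.1 TPM with control siRNA in Input. None of the 5 genes passed in Ribo-seq, with a median log2 fold change of -0.08.

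Of the 9 relatives and regulators of eIF4F, EIF4A3 fell in footprints. EIF4A3 (NCBI gene 9775; chromosome 17, 80134369 to 80147128), the helicase of the exon junction complex rather than of initiation, had 92.2 and 138 TPM with ADAR1 siRNA, against 189 and 213 TPM with control siRNA in Ribo-seq and 139.8 and 147 TPM with ADAR1 siRNA, against 152 and 163 TPM with control siRNA in Input. Its log2 fold change was -0.72 ± 0.17 in footprints (edgeR adjusted p = 0.0490) and -0.12 ± 0.08 in RNA. The groups do not overlap in either assay, with ADAR1 siRNA the lower. EIF4B, which stimulates the helicase, had 31.0 and 48.8 TPM with ADAR1 siRNA, against 61.7 and 71.9 TPM with control siRNA in Ribo-seq and 289 and 276 TPM with ADAR1 siRNA, against 249.8 and 246 TPM with control siRNA in Input, where ADAR1 siRNA was the higher (footprint log2 -0.66 ± 0.18, edgeR adjusted p = 0.0657). EIF4H, a relative of EIF4B, had 294 and 398 TPM with ADAR1 siRNA, against 433 and 498 TPM with control siRNA in Ribo-seq. EIF4E3, a cap-binding relative of EIF4E, had the highest fold change of the 62 and few reads, with 24 and 20 estimated counts in ADAR1 siRNA Ribo-seq against 5 and 5 with control siRNA. Its log2 fold change of 1.74 ± 0.58 did not pass (edgeR adjusted p = 0.110). EIF4EBP1, a repressor of EIF4E that mTOR phosphorylates, had 88.5 and 81.0 TPM with ADAR1 siRNA, against 101 and 99.7 TPM with control siRNA in Ribo-seq and 126 and 129 TPM with ADAR1 siRNA, against 163 and 160.4 TPM with control siRNA in Input, without overlap in either. The other 4 (EIF4E2, EIF4EBP2, EIF4ENIF1 and EIF4G2) had footprint log2 fold changes from -0.57 to 0.29.

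A further group of 8 held EIF1, EIF1AD, EIF1AX, EIF1B, EIF2A, EIF2D, EIF5 and EIF5B. Its median log2 fold change was 0.11 in footprints and 0.21 in RNA, and none of the 8 passed. EIF2A, an initiator tRNA carrier distinct from eIF2, stood apart with 21.8 and 24.2 TPM with ADAR1 siRNA, against 33.7 and 37.6 TPM with control siRNA in Ribo-seq and 128 and 116 TPM with ADAR1 siRNA, against 102 and 102 TPM with control siRNA in Input. ADAR1 siRNA libraries were lower in footprints and higher in RNA without overlap, with log2 fold changes of -0.54 ± 0.15 and 0.23 ± 0.06 (edgeR adjusted p = 0.0676 and 0.106). EIF5, which makes eIF2 hydrolyse its GTP, had 36.2 and 51.0 TPM with ADAR1 siRNA, against 43.8 and 39.4 TPM with control siRNA in Ribo-seq, overlapping, and 214 and 196 TPM with ADAR1 siRNA, against 164 and 158 TPM with control siRNA in Input, where ADAR1 siRNA was the higher. EIF1, which guards start codon choice, had 2232 and 2617 TPM with ADAR1 siRNA, against 2587 and 2691 TPM with control siRNA in Ribo-seq. EIF5B, which joins the ribosomal subunits, had 4.18 and 6.17 TPM with ADAR1 siRNA, against 3.80 and 4.42 TPM with control siRNA in Ribo-seq, with replicate 2 of ADAR1 siRNA the highest. EIF1AX, EIF1AD, EIF1B and EIF2D had footprint log2 fold changes from -0.12 to 0.24.

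EIF5A, whose hypusinated product helps ribosomes through stretches such as runs of proline, had, with EEF1A1, the highest Ribo-seq TPM of the 64 in every Ribo-seq library. It had 4492 and 4399.6 TPM with ADAR1 siRNA, against 4768 and 4383 TPM with control siRNA in Ribo-seq, overlapping, and 1024 and 987 TPM with ADAR1 siRNA, against 1143 and 1110.3 TPM with control siRNA in Input, where ADAR1 siRNA was the lower. EIF6, which keeps the large subunit from joining early, had 471 and 575 TPM with ADAR1 siRNA, against 629 and 684 TPM with control siRNA in Ribo-seq (log2 -0.24 ± 0.13, edgeR adjusted p = 0.305). EIF5A2 had a footprint log2 fold change of 0.06 ± 0.20. EIF5AL1, a near-copy of EIF5A, was below the Ribo-seq filter, with 1.47 to 11.1 estimated counts per library.

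In elongation, footprints of EEF1A1 fell and its RNA did not pass the test. EEF1A1 (NCBI gene 1915; chromosome 6, 73515750 to 73521032), the carrier of aminoacyl-tRNA, had 2257 and 3472 TPM with ADAR1 siRNA, against 4584 and 5207 TPM with control siRNA in Ribo-seq. Replicate 1 of ADAR1 siRNA was at 46.1% and replicate 2 at 70.9% of the control mean, both below the controls. In Input it had 6752 and 6876 TPM with ADAR1 siRNA, against 5980.2 and 5997 TPM with control siRNA, with ADAR1 siRNA the higher. The log2 fold change was -0.69 ± 0.16 in footprints (edgeR adjusted p = 0.0460) and 0.17 ± 0.06 in RNA (adjusted p = 0.147). The footprint call of EEF1A1, like that of EIF4A3, did not pass with upper-quartile scaling or limma-voom, nor without either control Ribo-seq library, and over all settings the adjusted p ran from 1.05e-12 to 0.398 for EEF1A1 and from 1.79e-09 to 0.427 for EIF4A3. EIF2B4, EIF3C and EIF3D were lost only without control Ribo-seq replicate 2, where their edgeR adjusted p-values were 0.282, 0.453 and 0.395; their lowest were 1.00e-07, 2.04e-08 and 7.57e-09.

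The other subunits of eEF1 did not pass. EEF1G, a scaffold of the exchange complex, had 464 and 809.5 TPM with ADAR1 siRNA, against 977 and 1057 TPM with control siRNA in Ribo-seq and 2040.2 and 2212 TPM with ADAR1 siRNA, against 2029.8 and 2103 TPM with control siRNA in Input (footprint log2 -0.60 ± 0.19, edgeR adjusted p = 0.0942). EEF1D, an exchange subunit, had 569 and 754 TPM with ADAR1 siRNA, against 817 and 856 TPM with control siRNA in Ribo-seq and 491 and 611 TPM with ADAR1 siRNA, against 603 and 647 TPM with control siRNA in Input. EEF1B2, the other exchange subunit, had 1132 and 1139.8 TPM with ADAR1 siRNA, against 1258 and 1136 TPM with control siRNA in Ribo-seq and 817 and 865 TPM with ADAR1 siRNA, against 779 and 824 TPM with control siRNA in Input, and its groups overlap in both. EEF1A2, the isoform known from muscle and neurons, had 18.1 and 27.9 TPM with ADAR1 siRNA, against 28.8 and 31.8 TPM with control siRNA in Ribo-seq and 42.4 and 48.1 TPM with ADAR1 siRNA, against 53.4 and 50.4 TPM with control siRNA in Input. The TPM of EEF1A1 was 125 times that of EEF1A2 in both ADAR1 siRNA Ribo-seq libraries, against 159 and 164 times with control siRNA.

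EEF2, the translocase, had 94.8 and 137 TPM with ADAR1 siRNA, against 169 and 219.9 TPM with control siRNA in Ribo-seq and 846 and 835 TPM with ADAR1 siRNA, against 839 and 845 TPM with control siRNA in Input. Its footprints were at 48.8% and 70.5% of the control mean without overlap, but the log2 fold change of -0.66 ± 0.17 did not pass (edgeR adjusted p = 0.0615). The RNA fold change was -0.02 ± 0.06. The 5 methyltransferases of eEF1A and eEF2 and EEF1E1, a protein of the multisynthetase complex, had a median footprint fold change of 0.10 (range -0.16 to 0.30). Of these EEF1AKMT2, a lysine methyltransferase of eEF1A, had 17.7 and 16.7 TPM with ADAR1 siRNA, against 15.4 and 14.8 TPM with control siRNA in Ribo-seq (edgeR adjusted p = 0.348).

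**Figure D4:**
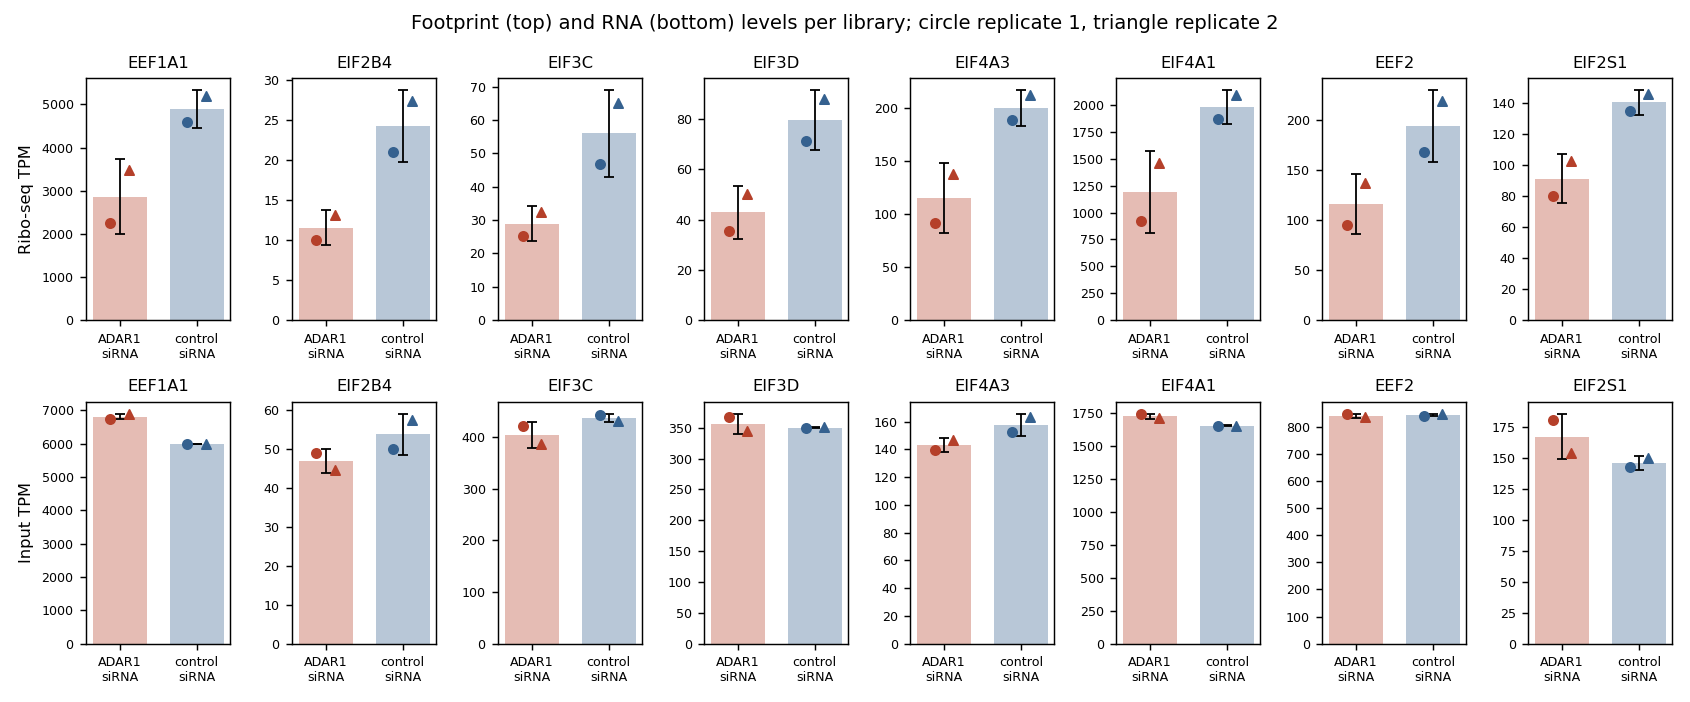
TPM of 8 factors in Ribo-seq (top) and Input (bottom); bars are means, error bars SD (n = 2), circles replicate 1 and triangles replicate 2. In Ribo-seq the ADAR1 siRNA points of all 8 lie below the controls, as for EEF1A1 with 2257 and 3472 against 4584 and 5207 TPM, while in Input they lie above the controls for EEF1A1, EIF4A1 and EIF2S1.

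Poly(A)-binding and release factors lay below 0 in footprints without passing (4 of 4, median -0.38). GSPT1, which encodes eRF3, had 11.3 and 13.7 TPM with ADAR1 siRNA, against 16.7 and 21.9 TPM with control siRNA in Ribo-seq and 102 and 95.2 TPM with ADAR1 siRNA, against 92.0 and 92.9 TPM with control siRNA in Input (footprint log2 -0.54 ± 0.18, edgeR adjusted p = 0.115). ETF1, which encodes eRF1 and reads the stop codon, had 68.8 and 73.4 TPM with ADAR1 siRNA, against 76.5 and 86.5 TPM with control siRNA in Ribo-seq. PABPC1, the main poly(A)-binding protein, had 28.8 and 42.2 TPM with ADAR1 siRNA, against 39.2 and 51.6 TPM with control siRNA in Ribo-seq, overlapping, and 1412 and 1403 TPM with ADAR1 siRNA, against 1398 and 1361 TPM with control siRNA in Input. PABPC4 had 8.47 and 13.6 TPM with ADAR1 siRNA, against 14.5 and 18.02 TPM with control siRNA in Ribo-seq. PABPC1 made up 77.3% and 75.6% of the footprint TPM of this pair with ADAR1 siRNA, against 73.0% and 74.1% with control siRNA.

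Translational efficiency, the ratio of Ribo-seq to Input TPM, placed the factors over the whole range in control cells. In the authors' deposited table, 62 factors with a mean of at least 10 counts in each assay had a median control value of 0.684, beside 0.385 over 11651 genes, and 43 of the 62 lay above that median. By this measure EIF4E ranked highest, with 6.82 and 7.61 with ADAR1 siRNA, against 8.65 and 7.94 with control siRNA in the authors' deposited table. EIF1 had 4.16 and 5.45 with ADAR1 siRNA, against 5.58 and 5.72 with control siRNA, and EIF5A had 4.39 and 4.46 with ADAR1 siRNA, against 4.17 and 3.95 with control siRNA, in the authors' deposited table. At the other end the authors' deposited table gives EIF5B 0.0256 and 0.0456 with ADAR1 siRNA, against 0.0265 and 0.0329 with control siRNA, PABPC1 0.0204 and 0.0301 with ADAR1 siRNA, against 0.0280 and 0.0379 with control siRNA and EIF4G1 0.0312 and 0.0490 with ADAR1 siRNA, against 0.0327 and 0.0399 with control siRNA. The control values of the lowest 3 differ by less than their spread, although the lowest 3 and the highest 3 each keep their order in both control libraries. Of the 62 factors, 5 stood in the highest 5% of all genes and 4 in the lowest 5%.

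These levels rest on the length by which each assay's TPM was divided. Implied lengths were taken from count and TPM in control replicate 1 of each assay alone. For EIF4E the implied length was 0.515 times that of the median gene in Ribo-seq and 3.68 times in Input. The plain ratio of its Ribo-seq to Input counts was 1.20 in the controls. For EIF5A the implied lengths were 0.373 and 0.404 times the median gene and the count ratio was 3.87. EIF4G1 had implied lengths of 3.47 and 1.72 times the median gene and a count ratio of 0.0752. Across the 62 factors the control value had a Spearman rho of -0.79 with the implied Ribo-seq length, beside -0.71 over all genes, where both share the Ribo-seq libraries.

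**Figure D5:**
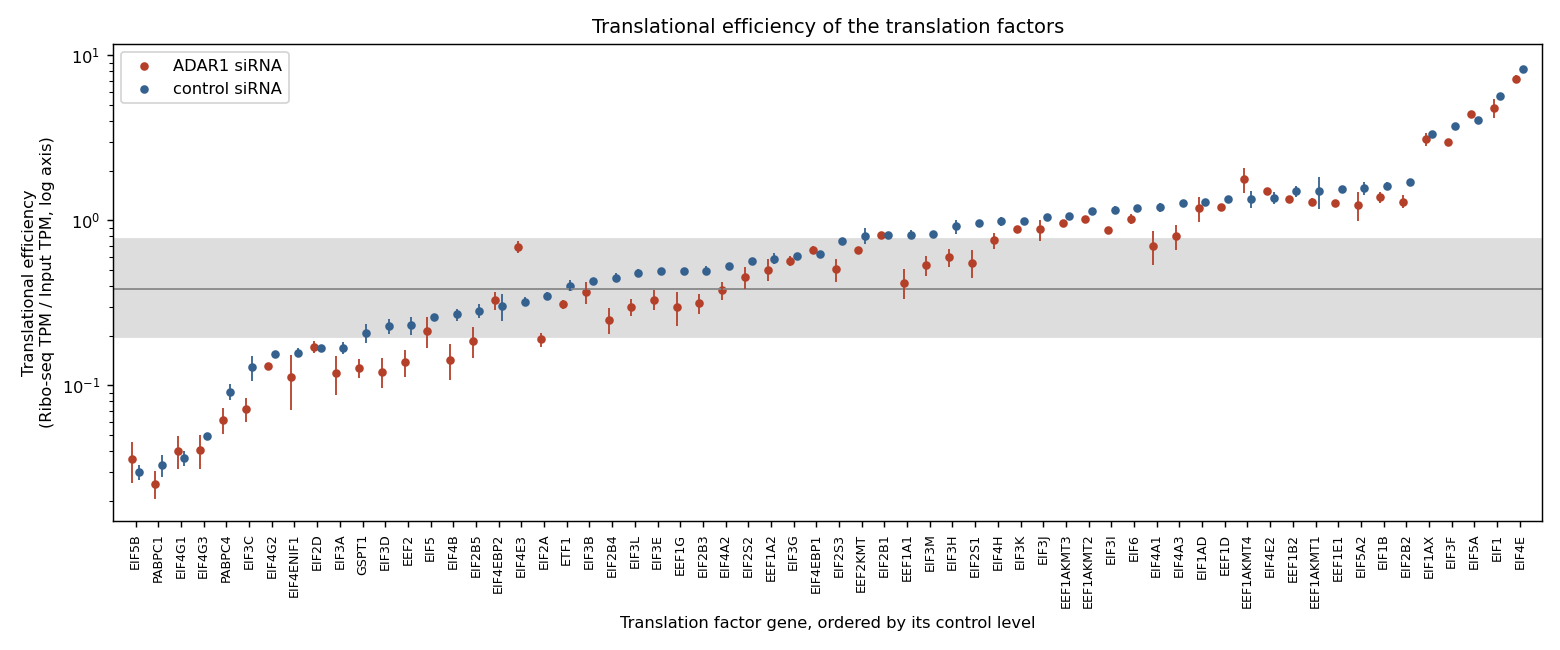
Translational efficiency (Ribo-seq TPM over Input TPM, log axis) of the factors, ordered by control level. Points are means, and bars run from the lower to the higher of 2 libraries. The line and grey band give the median (0.385) and interquartile range of all genes in control. Factors run from EIF5B to EIF4E, and most ADAR1 siRNA points lie below the control ones.

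Changes in translational efficiency were tested as the interaction of assay and siRNA over all 8 libraries. None of the 64 factors passed by edgeR, where 6 of 12953 genes tested (0.0463%) did, 0.0154% higher and 0.0309% lower. At an unadjusted p under 0.05 there were 21 factors, 1 above 0 and 20 below, against 13.2% and 9.48% of all genes. DESeq2 called 13 lower and 7.58% of all genes in either direction, and limma-voom and limma on TPM ratios called none of the factors. Without ADAR1 siRNA Ribo-seq replicate 1, 5 factors fell by edgeR and without replicate 2, 20 did, as 3.81% and 16.9% of all genes changed. EIF3CL, with no footprint counts, has no efficiency and is left out of the medians and signs that follow. The median log2 fold change of the other 63 was -0.16, with 48 below 0, beside 0.09 over all genes tested, of which 42.7% lay below 0 and 57.3% above. By the authors' deposited values, both ADAR1 siRNA ratios lay below both controls for 39 of 63 factors (61.9%) and above both for 3, against 28.3% and 24.6% of all genes.

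The smallest p-values in translational efficiency belonged to EIF2A, EIF2S1, EIF3D and EEF1A1. EIF2A had 0.171 and 0.209 with ADAR1 siRNA, against 0.331 and 0.369 with control siRNA in the authors' deposited table, and its fitted log2 fold change was -0.74 ± 0.14 (SE, edgeR adjusted p = 0.0534). EIF2S1 had 0.445 and 0.665 with ADAR1 siRNA, against 0.949 and 0.975 with control siRNA in the authors' deposited table (fitted -0.69 ± 0.16, edgeR adjusted p = 0.0578). EIF3D had 0.0965 and 0.146 with ADAR1 siRNA, against 0.203 and 0.251 with control siRNA in the authors' deposited table (fitted -0.79 ± 0.18, edgeR adjusted p = 0.0587). For each of these genes both ADAR1 siRNA values lay below both controls. EEF1A1 had 0.334 and 0.505 with ADAR1 siRNA, against 0.766 and 0.868 with control siRNA in the authors' deposited table, and its fitted value was -0.84 ± 0.21 (edgeR adjusted p = 0.0613). EIF4B and EIF2B4 followed, with fitted values of -0.81 ± 0.20 and -0.74 ± 0.20 (edgeR adjusted p = 0.0631 and 0.0725). By complex, medians were -0.44 for eIF2, -0.48 for eIF2B, -0.41 for eIF3, -0.06 for eIF4F and -0.08 for eEF1.

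Returning to the starts shown above, the 11 factors with a tract at the start had a median footprint fold change of -0.37 (10 of 11 below 0, with EEF1A1 and EIF3D called), beside -0.03 for the 37 tested without one (19 below 0, with 3 called). Of all tested genes with a tract, 3.16% were called lower and 0.743% higher in footprints, and of those without one, 1.66% and 1.90%. EIF2D was the 1 factor with a tract that lay above 0. In translational efficiency all 11 lay below 0 (median -0.46), beside 27 of 38 without a tract (median -0.11). Ribosomal protein genes with a tract had medians of 0.04 in footprints and 0.03 in translational efficiency, and all tested genes with a tract 0.03 and 0.06. Textbooks list 10 factors as TOP transcripts: the eEF1 subunit genes EEF1A1, EEF1B2, EEF1D and EEF1G, with EEF2, EIF3E, EIF3F, EIF3H, EIF4B and PABPC1. Promoters were matched for 6 of these, and 4 of the 6 carried a tract at the start. So did 7 of the 43 matched factors outside the list. The 10 listed factors had a footprint median of -0.38, with 9 below 0 and EEF1A1 called. The 78 ribosomal protein genes had a median of 0.06, with 32 below 0 and none called by edgeR. At an unadjusted p under 0.05 by edgeR, 7 of the 78 lay above 0 and 8 below, where 12.6% and 11.3% of all genes tested did. These differences between lists were not tested.

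Genes that act on these factors were counted from 2 lists. Of 25 regulators (among them eIF2 kinases and phosphatase subunits and genes of mTOR and MNK signalling) 2 rose in footprints and none fell, where 1.88% of all genes tested were higher and 1.67% lower. PPP1R15A, which guides a phosphatase to eIF2 alpha, rose by 0.92 ± 0.16 (log2, SE, edgeR adjusted p = 0.0336), and MKNK2, a kinase of EIF4E, by 1.08 ± 0.22 (adjusted p = 0.0420). EIF2AK4, which encodes the eIF2 kinase GCN2, had a value of 0.56 ± 0.18 (edgeR adjusted p = 0.0982). Of 20 accessory factors, DDX3X, an initiation helicase, fell by 0.76 ± 0.18 on the log2 scale (edgeR adjusted p = 0.0481), and none rose, with the same shares of all genes. ABCF3 and NCBP1, the large subunit of the nuclear cap-binding complex, had values of -0.71 ± 0.22 and -0.67 ± 0.21 and did not pass. None of either list passed in RNA or translational efficiency by edgeR, with 7 of 25 and 7 of 20 in RNA and 7 of 25 and 6 of 20 in translational efficiency at an unadjusted p under 0.05. Over all genes tested the shares at such a p were 25.3% in RNA and 22.7% in translational efficiency. The genes of smallest p in RNA were PPP1R15A (0.36 ± 0.06), RPTOR (-0.27 ± 0.07) and MLST8 (-0.36 ± 0.09) among regulators. Among accessory factors they were GCN1 (-0.26 ± 0.06), DPH5 (0.34 ± 0.10) and DHX29 (0.20 ± 0.06). In translational efficiency they were MKNK2 (1.10 ± 0.22), EIF2AK4 (0.64 ± 0.19) and PPP1R15A (0.59 ± 0.18), and DDX3X (-0.89 ± 0.20), DHX29 (-0.72 ± 0.19) and NCBP1 (-0.79 ± 0.24).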

How the data were processed

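Per the submitters' processing notes, the reads were handled with cutadapt, Bowtie2, STAR and featureCounts on GRCh38 (hg38), with no versions, settings or strand use given in the sources used here. The deposited table lists an estimated count per gene and library (87.5% to 90.3% of values whole; the origin of fractions is not given), TPM as the authors deposited it, and a translational efficiency, which the authors deposited as the ratio of Ribo-seq to Input TPM. Symbols were found for 19669 of 19892 gene numbers; coordinates and starts are from RefSeq for GRCh38.p14. Per the labels' protocols, RNA of 30 nt (Ribo-seq) or 40 to 60 nt (Input) was cut from gels.

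Estimated counts were rounded and tested with edgeR 4.0.16 in R 4.3.3 (TMM, filterByExpr, two-sided quasi-likelihood tests, Benjamini-Hochberg over all genes tested, threshold 0.05). RNA was fitted over 4 Input libraries, footprints over 4 Ribo-seq libraries, and translational efficiency as an interaction over 8. Groups follow the titles. With 2 libraries a group, exact tests cannot give a two-sided p below 0.333. Alternatives used DESeq2 1.42.0, limma 3.58.1, other scalings and filters, a replicate block and each library left out. The fits were tested on simulated data.

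Per-library values are given for called genes, the leading gene of each group, the 3 highest and 3 lowest control efficiencies and all subunits of the 5 complexes, and pathway genes by the 3 smallest p-values. The genes and lists were chosen with earlier results of these data known.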

Additional observations from a re-analysis of the deposited data

How the results depend on the processing

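The number of translation factors called depended on the test and on single libraries. In footprints, where 5 fell, as 3.54% of all genes changed, the count was 3 with upper-quartile scaling and with limma-voom (4.06% and 2.08% of all genes), 14 with no filter on low counts (10.9%) and 13 with DESeq2 (8.15%). In RNA, where none changed by edgeR, DESeq2 called 1 higher (3.55% of all genes). In translational efficiency, where none changed by edgeR, 8 fell with no filter (5.04%) and 13 with DESeq2 (7.58%). With the replicate number as a block, 17 fell in footprints, 10 fell in translational efficiency, and 1 fell and 2 rose in RNA, as 17.5%, 9.02% and 8.66% of all genes changed. The numbers are not shown to pair the libraries: deviations of same-numbered ADAR1 siRNA and control libraries correlated by 0.00045 in Input and 0.018 in Ribo-seq, and those of same-numbered Input and Ribo-seq libraries by 0.37 with ADAR1 siRNA and 0.0072 with control siRNA. With 1 library left out, the counts ran from 0 to 14 lower and 0 to 24 higher in RNA, from 0 to 29 lower and 0 to 1 higher in footprints, and from 0 to 20 lower in translational efficiency, where a lone library is assumed to vary like the other group.

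The median log2 fold change of the factors kept its sign in every setting run. It ran from 0.016 to 0.073 in RNA, from -0.31 to -0.13 in footprints and from -0.26 to -0.13 in translational efficiency with 1 library left out, where EIF3CL is counted in (-0.17 with all libraries, against -0.16 without that gene). In footprints it was -0.14 with upper-quartile scaling. In translational efficiency it was -0.24 with a mean count of at least 50 and -0.32 by limma on TPM ratios, where the median of all genes moved to -0.038, against 0.092. Without ADAR1 siRNA Input replicate 2, EEF1G had an RNA log2 fold change of -0.076 (edgeR adjusted p = 0.0394), against 0.027 with it and 0.12 without replicate 1, the 1 reversal past the threshold among 13 factors followed through the settings. The cause of these shifts was not tested. Depth limits EIF4E3, EIF5AL1 and EIF3CL, which had few counts. EIF3CL had no counts in Ribo-seq, so summing it with EIF3C could not alter the 5 footprint calls and does not test them.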

Other observations

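Footprint changes were set beside the length by which Ribo-seq TPM appears to have been divided. Across the 62 factors tested, the footprint log2 fold change had a Spearman rho of -0.50 with this length, beside -0.10 over 11629 genes, as a description of these libraries. The length was the one implied by count and TPM in control Ribo-seq replicate 1 alone. The 8 shortest factors by this measure, at 0.280 to 0.373 times the median gene, were EIF1, EIF1B, EIF4EBP1, EIF4EBP2, EIF4E3, EIF1AX, EIF5A2 and EIF5A. Their fold changes ran from -0.15 to 1.74, with 6 above 0. The 8 longest, at 1.96 to 3.47 times, were EEF2, EIF4G2, EIF3C, EIF4ENIF1, EIF4G3, EIF5B, EIF3A and EIF4G1. Their fold changes ran from -0.87 to 0.42, with 3 above 0. Of these genes EIF3C passed the edgeR test and the others did not.

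EIF5A2, the less abundant isoform of EIF5A, had in Ribo-seq 20.3 and 30.6 TPM with ADAR1 siRNA, against 27.2 and 24.4 TPM with control siRNA, and the groups overlap. In Input it had 20.6 and 20.7 TPM with ADAR1 siRNA, against 15.8 and 17.1 TPM with control siRNA, and the groups do not overlap (log2 0.31 ± 0.09, edgeR adjusted p = 0.113).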
